A study of Mus musculus with 16 samples.

Results

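The clustered protocadherins were taken from total RNA-seq of mouse embryonic stem cells as every gene whose symbol is Pcdha, Pcdhac, Pcdhb, Pcdhga, Pcdhgb or Pcdhgc followed by a number. The rule found 57 of the 55291 genes in the deposited table, with 13 in the alpha cluster, 22 in the beta cluster and 22 in the gamma cluster. All libraries came from E14Tg2a cells (129/Ola), a feeder-free line in which endogenous CTCF carries an auxin-inducible degron. Every culture received 500 μM indole-3-acetic acid, which triggers removal of endogenous CTCF, and 1 μg/ml doxycycline, which switches on a Ctcf transgene, for 2 days. The transgene was wild type (WT) or carried R342C, K365T or Q418R. Each of these 4 lines was grown in LIF medium, which also held 3 μM CHIR99021 and 1 μM PD0325901, or for 3 days in medium without LIF and without these inhibitors, a protocol for exit from pluripotency. This gives 8 groups of 2 libraries. Each genotype is 1 line, so genotype and line cannot be told apart. The labels do not say whether the 2 replicates were separate cultures, so p-values measure only the spread between these libraries.

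Clustered protocadherins are cell-surface adhesion molecules, best known in neurons, where each cell shows its own combination and recognises its own branches by it. In the alpha and gamma clusters a row of variable first exons, each with its own promoter, is spliced to constant exons shared by the whole cluster. The beta genes are single-exon genes with no shared exons. Most variable promoters bind CTCF, which with cohesin loops a distant enhancer to the promoter that is chosen. The last genes of the alpha and gamma clusters, called C-type, are used in a more regular way than the others. In embryonic stem cells the clusters are known to be only weakly transcribed.

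The libraries held 19721363 to 31935381 reads assigned to genes. Structural RNAs (ribosomal, small nuclear, small nucleolar and similar genes) took 7.26% of the normalised counts in replicate 2 of WT without LIF and 2.51% to 5.43% in the other 15 libraries. Replicate 2 of K365T without LIF had the fewest reads. Ctcf was measured in every library, at a normalised count of 5292 to 8585, which counts RNA and does not check removal of the protein. The pluripotency gene Pou5f1 stood at 10710 to 12991 in LIF and at 5082 to 8922 without LIF. Of 10 listed pluripotency markers, 9 or 10 fell without LIF in each line, and all 5 formative markers rose in each line. Of all tested genes 23.0% to 24.9% fell and 21.6% to 23.8% rose, by the test described below. In bulk RNA, fewer cells that use a gene and less RNA of it per cell cannot be told apart.

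All members with 1 gene model lie on the plus strand of chromosome 18 (mm10, GENCODE M21). The alpha genes run from 36930184 to 37187661, the beta genes from 37264938 to 37524479 and the gamma genes from 37661793 to 37841873. The alpha cluster held 374 reads over the 16 libraries, the beta cluster 50 and the gamma cluster 17594. Of these gamma reads, 12038 belonged to Pcdhgc3 alone. A read of a low gene therefore counts: 7 members, of which 6 are beta genes and 1 is Pcdha1, had no read in any library. The gamma cluster was detected most evenly, with 19 to 22 of its 22 genes above 0 in each library.

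Per length, Pcdhgc3 was the highest member in these libraries, with a mean of 17.2 TPM and a range of 11.7 to 24.8. The next genes were Pcdhga12 (mean 0.908 TPM, range 0.291 to 1.94), Pcdhgc5 (mean 0.837 TPM) and Pcdhgc4 (mean 0.756 TPM). Their ranges over the libraries overlapped. Pcdhga11, Pcdhga1 and Pcdhgb7 followed with means of 0.628, 0.615 and 0.599 TPM. The lowest gamma gene, Pcdhga6, reached a mean of 0.069 TPM and had no read in 6 libraries. The annotated length of each gene, on which TPM rests, includes the shared constant exons, but Pcdhgc3 had 12038 reads where Pcdhga6 had 36, so reads in the shared exons were not assigned to every gene. Whether some of them were assigned to Pcdhgc3 cannot be told, as the counting tool is not given. Among the A and B genes Pcdhga12 had the highest mean TPM in 4 of the 8 groups: K365T in LIF (1.06 ± 0.117, SD, n = 2) and without LIF (0.95 ± 0.22), Q418R in LIF (1.90 ± 0.057) and WT without LIF (0.40 ± 0.155). In K365T without LIF this lead over Pcdhgb4 (0.796 ± 0.706) turned in replicate 2. Pcdhgb7 (0.83 ± 0.319) and Pcdhga12 (0.80 ± 0.158) did not differ beyond their spread in WT in LIF. Pcdhga11 led in R342C, with 1.38 ± 0.253 in LIF and 0.868 ± 0.214 without LIF, and Pcdhga1 in Q418R without LIF, with 1.55 ± 0.064.

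**Figure D1:**
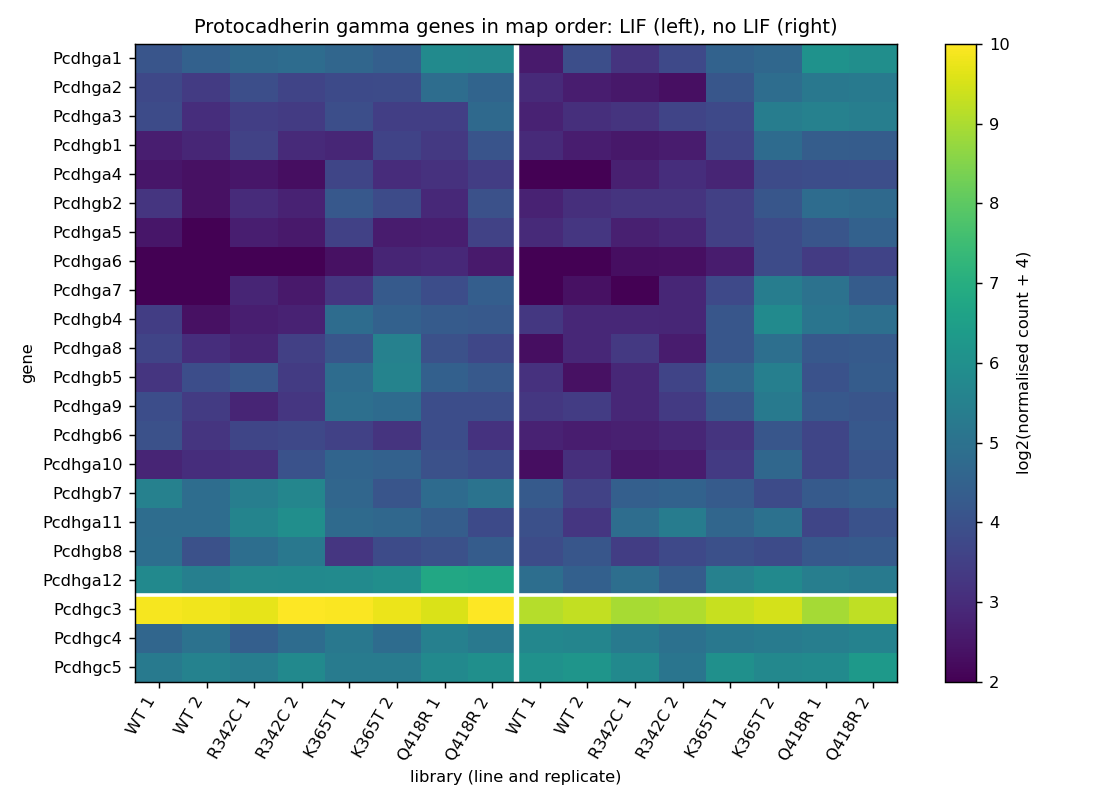
Each of the 22 gamma genes (rows, in map order, C-type genes under the horizontal line) in each of the 16 libraries (columns, LIF left and no LIF right of the vertical line) as log2(normalised count + 4). Pcdhgc3 is the brightest row throughout, and the upper rows are brighter in both Q418R libraries without LIF than in the WT and R342C libraries without LIF.

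The first comparison is of medium within each line. A gene was tested if its mean normalised count was at least 10, a filter passed by 15 members (Pcdhac2 and 14 gamma genes). Differences are between group means of log2(normalised count + 4), a scale that understates the change of low genes, and a gene was called at an adjusted p under 0.05 by limma with Benjamini-Hochberg adjustment over the 17757 genes tested. Without LIF 2 of the 15 rose and 5 fell in WT, where 23.8% of all tested genes rose and 24.9% fell. For R342C 1 rose and 6 fell (23.3% and 23.9% of all genes). For K365T 1 rose and 1 fell (21.6% and 23.0%), and for Q418R 2 rose and 2 fell (23.0% and 23.5%). The called share of these members, 46.7% in WT and R342C, 13.3% in K365T and 26.7% in Q418R, is no larger than that of all genes.

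Pcdhac2, the last C-type gene of the alpha cluster, rose without LIF in all 4 lines. In WT its normalised count was 2.34 and 3.24 in LIF and 49.8 and 31.4 without LIF. The R342C libraries held 1.57 and 0.931 against 30.1 and 50.9, those of K365T 3.32 and 2.05 against 15.8 and 21.7, and those of Q418R 0 and 1.99 against 26.4 and 43.8. Every library without LIF lay above every library in LIF, and the K365T libraries without LIF were the lowest of that medium. The log2 difference was 2.69 ± 0.374 (SE) in WT (adjusted p = 3.54e-05), 3.05 in R342C (1.11e-05), 1.76 in K365T (0.00145) and 2.96 in Q418R (1.47e-05). By recovered reads, 264 without LIF and 16 in LIF over the 4 lines, Pcdhac2 was 17.6-fold higher without LIF, with a 95% counting interval of 10.6 to 31.3. This and the counting intervals that follow are exact and cover counting error only.

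The other 12 alpha genes had 5 reads in LIF and 89 without LIF, a ratio of 18.99 (counting interval 7.84 to 59.9). In LIF they had no read in WT or R342C, 1 in K365T and 4 in Q418R. Without LIF WT held 15 such reads, R342C 14, K365T 22 and Q418R 38. The K365T ratio was 22.6 (3.66 to 934) and the Q418R ratio 9.26 (3.33 to 35.7). Of the 22 K365T reads 19 lay in replicate 2, and of the 38 Q418R reads 26 did. Without those libraries the ratios were 5.94 (0.477 to 312) in K365T, an interval that includes no change, and 6.08 (1.84 to 25.9) in Q418R. Leaving out other libraries of these lines where a ratio could be taken gave 10.9 and 40.7 in K365T and 5.62 to 20.2 in Q418R. Where no read was left in LIF, a floor of 3 reads was used. Against it the ratio was at least 3.91 without K365T replicate 1 in LIF. Without 1 LIF library it fell to at least 2.39 in WT and 2.38 in R342C. Leaving out libraries here was chosen after seeing the data. Set against a floor of 3 reads over both libraries in LIF, the rise was at least 5.71-fold in WT and at least 5.20-fold in R342C. All such floor values take the count without LIF as exact, so they are not lower limits of a counting interval. Pcdhac1, the other C-type gene of this cluster, had no read in LIF and 15 without LIF, at least 5.33-fold more over the 4 lines. Pcdha11 was the highest of the alternately used alpha genes with 26 reads, 12 of them in replicate 2 of Q418R without LIF, and it is annotated as 2 gene models under 1 symbol. Pcdha2, with 13 reads, had 8 of them in that same library.

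Reads of the 22 beta genes were rarer, with 5 in LIF and 45 without LIF, a ratio of 9.60 (counting interval 3.83 to 31.0). No beta gene had more than 9 reads in all. In LIF the WT libraries held 0 and 2 beta reads, the R342C libraries 1 and 2, and the K365T and Q418R libraries none. Without LIF WT held 4 and 3, R342C 4 and 4, K365T 0 and 7, and Q418R 6 and 17. In K365T all 7 beta reads came from replicate 2, and in Q418R 17 of 23 did. The beta genes with the most reads were Pcdhb2 and Pcdhb22 with 9 each and Pcdhb3 with 7. The floor of 3 reads, with the count without LIF taken as exact, puts the rise at no less than 7.47-fold in Q418R and 2.40-fold in K365T. Without replicate 2 the 6 reads left in Q418R put it at no less than 4.05-fold, and K365T had none. In WT (3.99-fold, 0.761 to 39.4) and R342C (2.97-fold, 0.714 to 17.4) the interval includes no change. Floor values are not interval limits, so the lines cannot be ranked by these 2 measures. WT and K365T both held 7 beta reads without LIF.

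Markers of neural cells, the cells best known for these clusters, moved with the medium too. Of 10 such markers 7 or 8 rose without LIF in each line (21.6% to 23.8% of all tested genes did), and 1, Nes, fell in K365T (23.0%). Their summed normalised count was 2176 to 3222 in LIF and 4420 to 6584 without LIF, and none was at 0 without LIF. The neuronal gene Rbfox3 was at 1.56 to 10.95 in LIF and 67.1 to 108 without LIF. Of 10 fibroblast markers, 7 passed the filter and 5 or 6 of them rose and 1, Pdgfra, fell in each line, while Lum and Postn were at or near 0 throughout. Of 7 endoderm markers tested 3 to 6 rose in each line, and Gata6 fell in WT. Of 5 mesoderm markers 0 to 2 rose and 1 or 2 fell in each line, with Kdr lower in all 4. Their part in the rise of the alpha and beta reads was not tested.

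**Figure D2:**
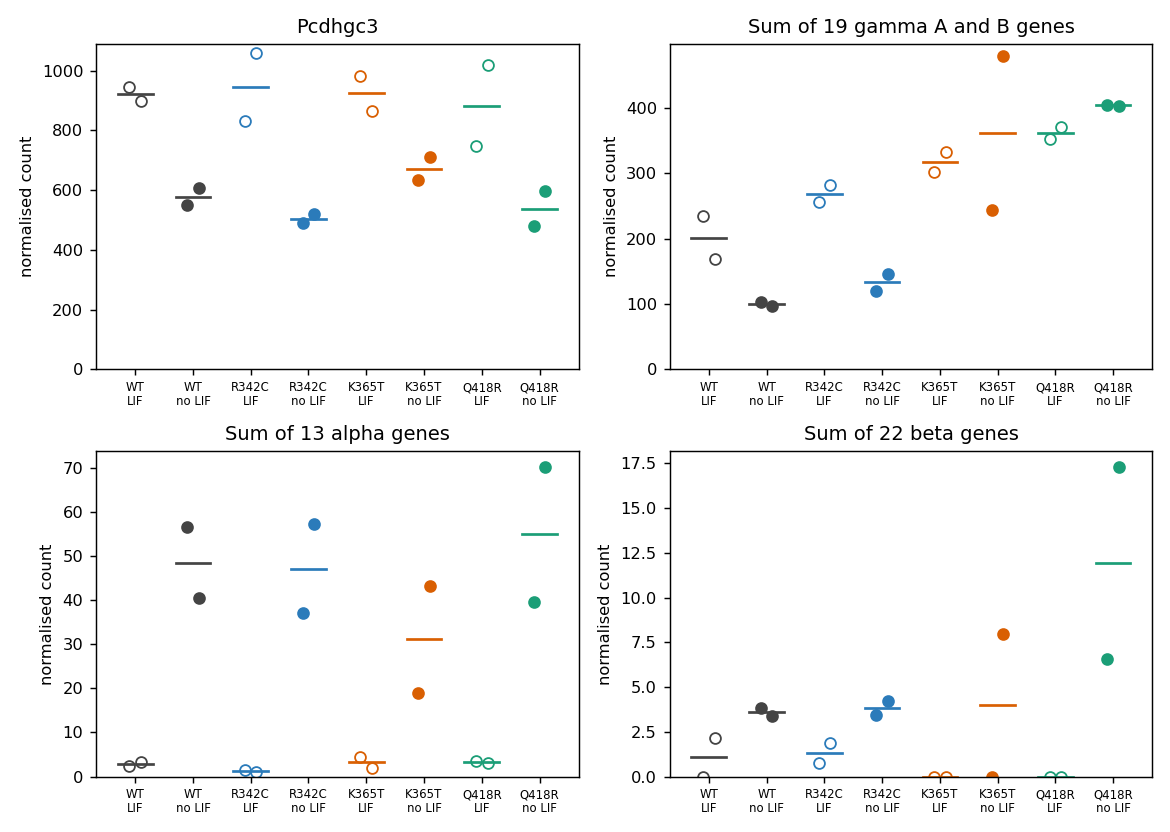
Normalised count per library (points, open in LIF and filled without LIF) and group mean (bars) of Pcdhgc3, of the 19 gamma A and B genes summed, of the 13 alpha genes summed and of the 22 beta genes summed. Alpha sums without LIF lie above those in LIF in every line, Pcdhgc3 lies lower, and the gamma A and B sum without LIF is lowest in WT and R342C.

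Pcdhgc3, the gamma gene with the most reads, fell without LIF in each line. Its normalised count in WT was 945 and 897 in LIF and 550.3 and 606 without LIF. The K365T libraries stood at 983 and 865 in LIF and 632 and 710.1 without LIF, with no overlap between the media. In R342C it was at 830.0 and 1060.1 against 489.8 and 519.99, and in Q418R at 748 and 1018 against 479 and 597, again with no overlap. The log2 difference was -0.67 ± 0.172 in WT (adjusted p = 0.0049), -0.89 in R342C (0.000628), -0.46 in K365T (0.042) and -0.70 in Q418R (0.00371). The K365T call ended with any 1 of its 4 libraries left out (adjusted p up to 0.207), on TPM (0.154), with upper-quartile scaling, with no filter and with these groups alone. The Q418R call ended without replicate 2 in LIF (0.0681).

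Pcdhgc4, whose protein is known to be needed for neuronal survival, rose in WT, where it was at 21.0 and 28.1 in LIF and at 47.9 and 46.0 without LIF (0.845 on the log2 scale, adjusted p = 0.0239). The call ended without replicate 1 in LIF or without either library without LIF (adjusted p up to 0.16). Its differences in the other lines, 0.52 in R342C, 0.24 in K365T and 0.12 in Q418R, did not pass the threshold. Pcdhgc5 stood at 35.0 and 43.2 in LIF and at 62.2 and 68.5 without LIF in WT, groups that did not overlap, but its difference (0.69, adjusted p = 0.0711) did not pass there or in any other line.

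The 19 gamma A and B genes, which use the alternate promoters, went down as a sum without LIF in WT and R342C and not in K365T or Q418R. In WT their summed normalised count was 234 and 169 in LIF and 103 and 97.6 without LIF. The R342C sums were 256 and 282 against 121 and 145, those of K365T 302 and 333 against 244 and 479, and those of Q418R 353 and 371 against 405 and 403. The ratio of the group means was 0.499 for WT, 0.495 for R342C, 1.14 for K365T and 1.12 for Q418R, and the media overlapped in K365T alone. The K365T mean rests on 2 libraries that differ by nearly the size of the lower one.

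Single genes behind these sums were Pcdhga12, Pcdhgb7, Pcdhga1 and their neighbours. Pcdhga12, the last A gene, was at 51.4 and 40.0 in LIF and 25.8 and 17.96 without LIF in WT, and at 106 and 99.6 against 38.5 and 35.7 in Q418R. On the log2 scale it fell by 0.95 in WT (adjusted p = 0.0127), by 1.17 in R342C (0.00355) and by 1.38 in Q418R (0.00107). The K365T difference, -0.23, was not called. In WT Pcdhgb7 (-1.27, adjusted p = 0.00773), Pcdhga11 (-1.24, 0.00722) and Pcdhga1 (-1.05, 0.0372) also fell. In R342C Pcdhgb8 (-1.45), Pcdhga2 (-1.34), Pcdhga1 (-1.30) and Pcdhgb7 (-1.07) fell. Pcdhgb8 is annotated as a polymorphic pseudogene. In Q418R Pcdhga3 rose, from 7.15 and 22.9 in LIF to 41.8 and 38.7 without LIF (1.35, adjusted p = 0.0423), a call that ended without replicate 1 in LIF, without either library without LIF, and with edgeR (0.0688) or DESeq2 (0.128).

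Of these calls, Pcdhgb7, Pcdhga11 and Pcdhga12 in WT lost theirs without replicate 2 without LIF, the library with more structural RNA, and Pcdhgb7 and Pcdhga12 also without replicate 1 in LIF. Pcdhga1 in WT ended without any library but that replicate 2, and also with edgeR (0.0714), DESeq2 (0.0853), a filter at a mean of 1, no filter and these groups alone. In R342C Pcdhgb7 ended with any 1 of its 4 libraries left out (adjusted p up to 0.118), Pcdhga1 without either library in LIF or replicate 1 without LIF (up to 0.111), and Pcdhga12 without replicate 2 without LIF (0.0505). The count of called members in WT, 7, was 3 without replicate 1 in LIF and 3 without replicate 2 without LIF. Pcdhga2, Pcdhgb8, Pcdhac2 and Pcdhgc3 in R342C, and Pcdhga12 and Pcdhac2 in Q418R, passed with each library left out in turn. When the filter was lowered to a mean of 1, which all 22 gamma genes pass, 1 gamma gene rose and 4 fell in WT (18.3% and 19.2% of the 25795 genes then tested), 0 and 6 in R342C (18.2% and 18.6%), 0 and 1 in K365T (17.4% and 18.3%), and 3 and 2 in Q418R (19.1% and 18.7%). The 3 that rose in Q418R were Pcdhga3, Pcdhgb2 (1.31) and Pcdhga5 (1.165).

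**Figure D3:**
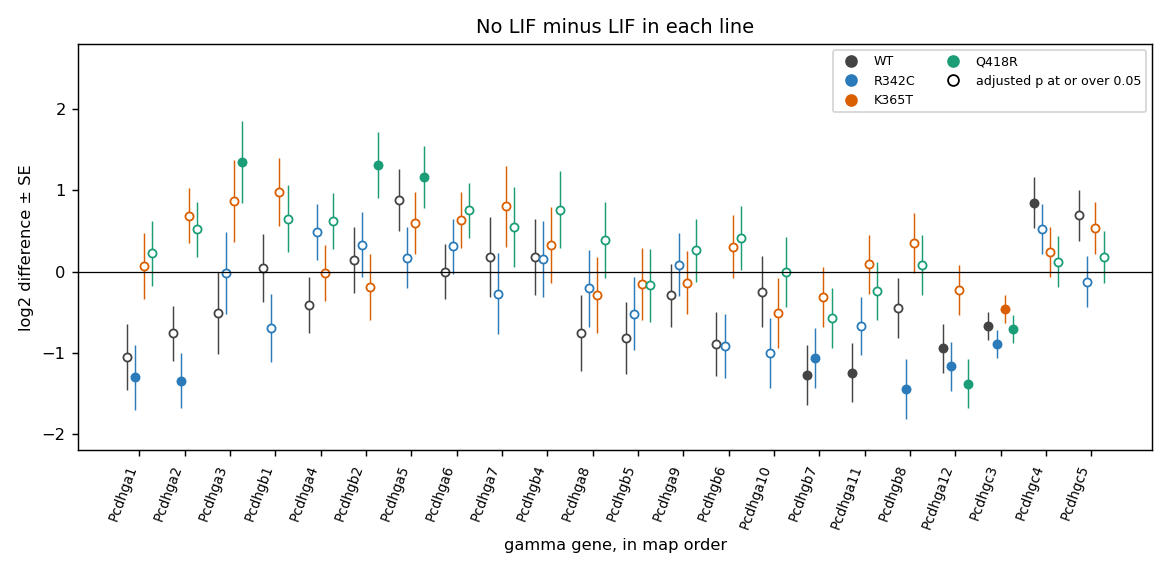
Difference without LIF minus LIF in log2(normalised count + 4) for the 22 gamma genes in map order, with its SE, in each of the 4 lines. Filled points have an adjusted p under 0.05 in the fit with a minimum mean of 1. Pcdhgc3 lies under 0 in every line, and Pcdhga12 is filled in WT, R342C and Q418R.

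The second comparison sets each mutant line against WT in the same medium. In LIF no member was called in R342C (limma, 0.417% of all genes called, with 1 member under an unadjusted p of 0.05 and none called by edgeR or DESeq2). DESeq2 gave an adjusted p there only for Pcdhga12, Pcdhgc3, Pcdhgc4 and Pcdhgc5, so it could not call the other members. In K365T 2 members were higher, where 6.42% of all genes were called higher, and in Q418R 2 were higher, where 1.86% were. No member was lower in these comparisons, where 4.66% of all genes were called lower in K365T and 2.38% in Q418R. The filter is a mean over all 16 libraries, so a member low in WT could pass it through the lines where it was high. Pcdhgb4 and Pcdhgb5, the members called in K365T, did so.

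The K365T genes in LIF were Pcdhgb4 and Pcdhgb5. Pcdhgb4 was at 24.3 and 18.48 in K365T against 7.01 and 1.08 in WT, and Pcdhgb5 at 24.3 and 44.1 against 5.45 and 10.8, with no overlap in either gene. Their log2 differences were 1.75 ± 0.477 (adjusted p = 0.0303) and 1.64 ± 0.446 (0.03). In Q418R in LIF Pcdhga1, the first A gene, was at 52.4 and 50.8 against 13.2 and 18.4 in WT. Pcdhga12 was at 106 and 99.6 against 51.4 and 40.0. Their log2 differences were 1.501 (adjusted p = 0.0443) and 1.11 (0.0417), and both calls ended with any 1 of the 4 libraries left out and on TPM. In K365T the count was 0 without replicate 2 of WT, 0 without replicate 2 of K365T and 1 without replicate 1 of WT.

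At the lower filter of a mean of 1, the gamma genes called in LIF were Pcdhga7 (1.77), Pcdhgb4, Pcdhgb5 and Pcdhga10 (1.59) in K365T, where 4.37% of genes were called higher, and Pcdhga7 (2.13) in Q418R, where 1.21% were. Pcdhga7 had no read in either WT library in LIF, 5.53 and 15.4 in K365T and 10.7 and 16.9 in Q418R. With 1 library left out the K365T count ran from 0 to 2 and the Q418R count was 0 in each case. By the sum of the 19 A and B genes the lines in LIF ranked WT (201), R342C (269), K365T (317) and Q418R (362). Every library of each mutant line was above both WT libraries in this sum.

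More members were called without LIF. Against WT, 9 of the 15 members past the filter were higher in K365T, where 7.38% of all genes were called higher, and 4 in Q418R, where 3.02% were. None was lower in either, where 7.33% and 3.13% of all genes were. Pcdhga2, Pcdhga3, Pcdhgb4, Pcdhga8, Pcdhgb5 and Pcdhga9, all called in K365T, were at 8.49 or less in WT and R342C without LIF. They passed the filter through the K365T and Q418R libraries, and Pcdhga2, Pcdhga3 and Pcdhgb4 were also called in Q418R. These counts, and those of the F test that follows, thus depend in part on the filter. They are no support for a difference of the members as a set. In R342C none was called (limma, 0.479% of all genes called, 2 members under an unadjusted p of 0.05, none by edgeR or DESeq2). DESeq2 gave an adjusted p there only for Pcdhga1, Pcdhga11, Pcdhga12, Pcdhgc3, Pcdhgc4 and Pcdhgc5, so it could not call the other members. An F test across the 4 lines called 9 of the 15 without LIF, where it called 13.8% of all genes, and 4 in LIF (Pcdhgb4, Pcdhga9, Pcdhga11 and Pcdhgb8), where it called 12.9%. All 4 LIF calls ended without either R342C library. The Pcdhgb8 call (adjusted p = 0.0493) also ended with the replicate block (0.0542), edgeR (0.0573), DESeq2 (0.127) and TPM (0.0816). Of the 9 calls without LIF, Pcdhga1, Pcdhga2 and Pcdhgb4 passed with each library left out in turn.

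In the sum of the 19 A and B genes without LIF, all libraries of the mutant lines lay above those of WT, by a ratio of group means of 1.32 for R342C, 3.598 in K365T and 4.02 in Q418R. At the lower filter all 19 genes were tested. In Q418R 18 of them had both libraries above both WT libraries (23.4% of all genes did), in K365T 17 did (23.1%), and in R342C 6 did (14.5%). None of the 19 had both libraries below WT in K365T or Q418R, and 4 did in R342C (14.7% of all genes). Pcdhga4 and Pcdhga6 had no read in either WT library without LIF, so no line could lie below WT in them. The median log2 difference of the 19 was 1.504 in Q418R, 1.34 in K365T and 0.23 in R342C, beside medians of all genes of 0.017, 0.003 and 0. In R342C the largest difference was that of Pcdhga11 (1.501, not called), at 24.97 and 37.1 against 11.5 and 5.61 in WT. The lowest was that of Pcdhgb8 (-0.391).

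The K365T calls ran from the first to the last A gene. Pcdhgb5 was at 21.1 and 39.9 in K365T against 4.79 and 1.12 in WT, a log2 difference of 2.31 ± 0.446 (adjusted p = 0.0048). Pcdhga2 was at 13.7 and 25.1 against 3.83 and 2.25 (1.70, 0.00458). Pcdhga8 (1.94, 0.0164) and Pcdhgb4 (1.90, 0.0178) were next. Pcdhga3 (1.63), Pcdhga9 (1.37), Pcdhga1 (1.355), Pcdhga11 (1.20) and Pcdhga12 (0.98) passed with an adjusted p of 0.0282 to 0.0455. Of these 9, Pcdhga2 alone passed with each library left out in turn, and with the WT and K365T groups alone 0 of all tested genes passed, these 9 included.

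Replicate 2 of K365T without LIF carried more of this difference than replicate 1. It was higher than replicate 1 in every one of the 9 called genes, for example 52.4 against 13.7 in Pcdhgb4 and 37.6 against 9.48 in Pcdhga3. Without it 2 members were called, and 3 without replicate 2 of WT. Its 19721363 reads were the fewest of the series, and it also held all 7 beta reads of its group. The formative markers summed to 31533 in replicate 2 and 17681 in replicate 1, and the pluripotency markers to 35514 and 44101. The part of depth or of these markers in the gamma difference was not tested.

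Of the 4 Q418R calls 3 were the first genes of the cluster. Pcdhga1 was at 63.8 and 58.1 in Q418R against 1.91 and 11.2 in WT, a log2 difference of 2.77 ± 0.389 (adjusted p = 0.0016). Pcdhga2 was at 33.0 and 34.6 against 3.83 and 2.25 (2.43 ± 0.325, 0.00118). Pcdhga3 was at 41.8 and 38.7 against 2.87 and 4.49 (2.53 ± 0.511, 0.0104). In each of these 3 genes both Q418R libraries were above every WT and R342C library of that medium. Pcdhgb4 followed with 30.8 and 26.5 against 5.74 and 3.37 (1.94, 0.0277). Pcdhga1 and Pcdhga2 passed with each library left out in turn. Pcdhga3 ended without replicate 2 of WT or replicate 1 of Q418R, and Pcdhgb4 without either Q418R library or replicate 2 of WT. With the WT and Q418R groups alone 0 of all tested genes passed.

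At the filter of a mean of 1, 11 of the 22 gamma genes were higher in K365T, where 5.21% of all genes were, and 9 in Q418R, where 2.28% were. All of them were A and B genes. Pcdhga6 had no read in any WT library and a normalised count of at most 1.06 in R342C, so it passed through K365T and Q418R. The Q418R genes were Pcdhga1, Pcdhga2, Pcdhga3, Pcdhgb1 (1.54), Pcdhga4 (1.92), Pcdhgb2 (1.84), Pcdhga6 (1.504), Pcdhga7 (2.51) and Pcdhgb4, which are 8 of the first 9 genes of the cluster and the gene after them. Pcdhga4 had no read in either WT library without LIF and was at 10.99 and 11.2 in Q418R. The K365T genes new at this filter were Pcdhga7 (2.39), Pcdhgb1 (1.41), Pcdhga4 (1.34) and Pcdhga6 (1.22), while Pcdhga3 and Pcdhga12 no longer passed. With 1 library left out the count was 0 (K365T replicate 2) to 11 in K365T, with 3 without WT replicate 2 and 5 without WT replicate 1. In Q418R it was 2 (without WT replicate 2 or without Q418R replicate 1), 5 or 6.

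The C-type genes were called in none of these comparisons. Without LIF the WT and Q418R libraries overlapped in Pcdhgc3, the R342C libraries were below WT and the K365T libraries above. Its log2 difference from WT without LIF was -0.19 in R342C, 0.21 in K365T and -0.11 in Q418R. It was called in no mutant line in either medium, and neither were Pcdhgc4, Pcdhgc5 and Pcdhac2. The largest of their differences without LIF was that of Pcdhac2 in K365T (-0.95 ± 0.374, adjusted p = 0.102). A missed threshold does not show that these levels were equal.

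**Figure D4:**
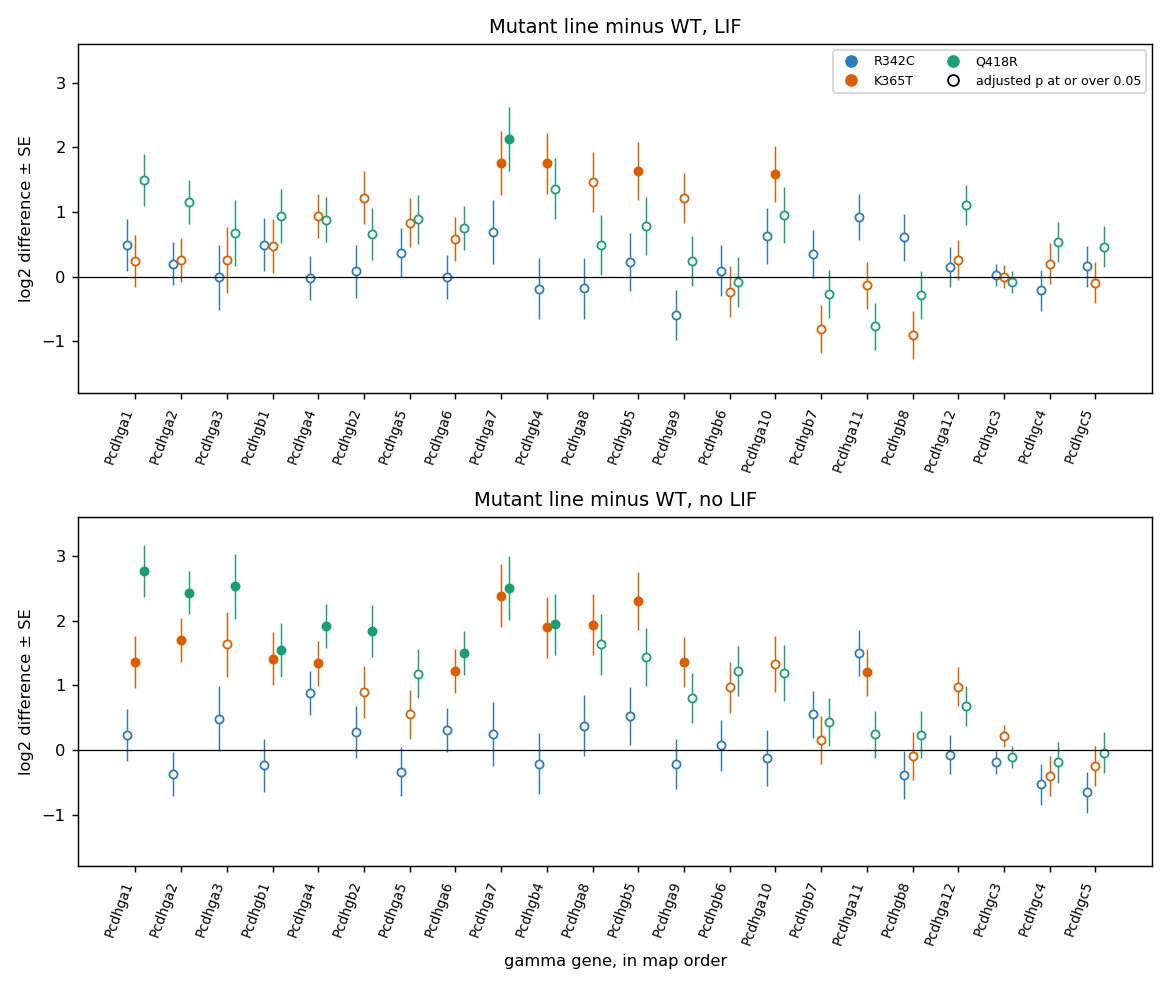
Difference of each mutant line from WT in log2(normalised count + 4), with its SE, for the 22 gamma genes in map order, in LIF (top) and without LIF (bottom). Filled points have an adjusted p under 0.05 in the fit with a minimum mean of 1. Without LIF 8 of the 9 Q418R points from Pcdhga1 to Pcdhga7 are filled, and no C-type gene is filled in any panel.

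The distribution of gamma reads shows the same libraries in another way. These shares were taken of normalised counts, not of TPM, and carry no test. The A and B genes made up 18.98% and 14.83% of the gamma sum in WT in LIF and 13.53% and 11.93% without LIF. In Q418R they made up 29.57% and 25.05% in LIF and 41.49% and 36.07% without LIF, and K365T without LIF was at 25.22% and 37.57%. The R342C share was 22.41% and 19.89% in LIF and 17.28% and 20.09% without LIF. Libraries of all 3 mutant lines exceeded both WT libraries of the same medium.

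Within the A and B genes the split between the first 9 (Pcdhga1 to Pcdhga7) and the last 10 (Pcdhgb4 to Pcdhga12) was made after the values were seen. The first 9 held 58.97% and 55.56% of the A and B sum in Q418R without LIF. In the other 14 libraries they held 17.82% to 41.02%, the highest being replicate 2 of Q418R in LIF. In normalised counts the first 9 summed to 231 ± 10.2 in Q418R without LIF (SD, n = 2), 135 ± 78.0 in K365T, 31.6 ± 9.36 in R342C and 25.3 ± 8.68 in WT. The last 10 summed to 173 ± 9.40, 226 ± 87.7, 101 ± 8.22 and 75.2 ± 12.7 in the same order of lines. Across the 19 genes, which share libraries and are not replicates, the rank correlation of map order with the difference from WT without LIF was -0.84 in Q418R, -0.40 in K365T and 0.05 in R342C.

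**Figure D5:**
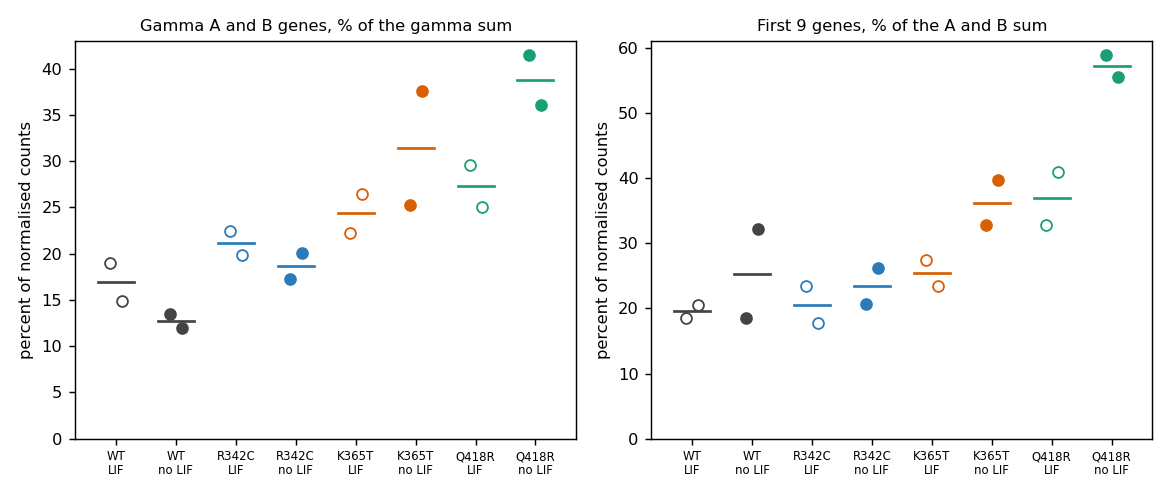
Share of gamma normalised counts in the 19 A and B genes (left) and share of the A and B counts in the first 9 of them (right), in percent, for each library (points, open in LIF and filled without LIF) with group means (bars). Both Q418R libraries without LIF lie above all other libraries in the right panel.

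K365T and Q418R were also set against each other, a comparison added after the data were seen. No member passed in LIF or without LIF (limma, 6.08% and 3.37% of all genes called, 4 and 3 members under an unadjusted p of 0.05, none by edgeR, and with DESeq2 none in LIF and Pcdhga1 without LIF at 0.0302). Pcdhga1 came nearest, at 52.4 and 50.8 in Q418R against 21.0 and 17.4 in K365T in LIF (1.26, adjusted p = 0.0721) and at 63.8 and 58.1 against 18.97 and 21.7 without LIF (1.42, 0.0607). The groups did not overlap in either medium. Pcdhga11 went the other way without LIF, at 8.79 and 12.2 in Q418R against 21.1 and 27.4 in K365T (-0.96, 0.135).

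Whether a mutant line changed its response to the medium was tested as an interaction with WT. No member passed in any line by limma, edgeR or DESeq2, with 0 members under an unadjusted p of 0.05 in R342C, 2 in K365T (Pcdhga2 and Pcdhga11) and 3 in Q418R (Pcdhga1, Pcdhga2 and Pcdhga3). DESeq2 gave no adjusted p for some members in K365T, Pcdhga2 included, and could not call them. Of all genes 0% passed in R342C, 0.659% in K365T and 0.141% in Q418R by limma. The largest of the named interactions was that of Pcdhga3 in Q418R at 1.86 ± 0.723 (adjusted p = 0.487). No member's difference from WT was thus shown to change with the medium.

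Some markers of other cell types also differed between the lines without LIF. Of all tested genes 7.38% were higher and 7.33% lower than in WT in K365T, and 3.02% and 3.13% in Q418R. Of 10 neural markers 1, Map2, was higher than in WT in K365T (0.685) and in Q418R (1.12). The neural sum was 4975 and 5729 in WT, 4420 and 4988 in K365T, and 6015 and 6584 in Q418R. Of 7 endoderm markers tested, Gata6 (1.91) and Cubn (2.24) were higher and Lamb1 (-0.995) lower in K365T, and Gata6 (1.94), Cubn (3.71) and Sox17 (1.66) were higher in Q418R. Cubn was also higher in R342C (3.695). Of the fibroblast markers Col1a1 was higher in K365T (2.145) and Q418R (1.78), Pdgfra higher in Q418R (1.07) and Dcn lower in K365T (-2.57), and no mesoderm marker was called. Of the 10 pluripotency markers Nanog was higher in K365T (0.81) and Sall4 in Q418R (0.52), and of the 5 formative markers Otx2 in both (1.28 and 1.67). The part of these markers in the gamma differences was not tested.

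Genes around the clusters were counted in the same way. Of 96 tested genes within 5 Mb of the clusters, 3 were higher and 4 lower in K365T than in WT without LIF (7.38% and 7.33% of all tested genes), and 2 higher and 1 lower in Q418R (3.02% and 3.13%). Their median difference was -0.06 in K365T and 0.02 in Q418R. Of 16 tested neighbours on a fixed list, none was called in any mutant line without LIF, and in LIF the germ-cell gene Dnd1 was higher (1.31) and Diaph1, an actin regulator beside the gamma cluster, lower (-0.43) in K365T. With the medium, Taf7, a transcription factor subunit between the beta and gamma clusters, fell in all 4 lines (-0.67 to -0.81), while Arap3 (4.34 to 4.82) and Rell2 (2.86 to 3.73) rose.

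Of 14 genes for CTCF, cohesin and related factors, Stag2 rose without LIF in each line (1.21 to 1.48) and Stag1 (-0.48 to -0.70) and Rad21 (-0.37 to -0.48) fell. None was called against WT in LIF. Without LIF the cohesin regulators Pds5b (-0.45) and Wapl (-0.43) and the cohesin subunit Smc3 (-0.42) were lower in K365T. Of all tested genes 7.33% were lower there. None was called in R342C or Q418R, which does not show equal levels. Of 16 listed genes for DNA methylation, demethylation and other silencing, 6 or 7 rose and 5 to 8 fell with the medium in each line. Of all tested genes 21.6% to 23.8% rose and 23.0% to 24.9% fell. The DNA methyltransferase genes Dnmt3b (3.12 to 3.99) and Dnmt3a (2.70 to 3.02) and their cofactor Dnmt3l (1.98 to 2.69) rose, and Tet2, which encodes a demethylating enzyme, fell (-2.84 to -3.70). Smchd1, a repressor of these clusters, rose by 0.57 in WT and 1.00 in Q418R.

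Between lines without LIF, 4 of the 16 genes listed for methylation, demethylation and silencing were lower in K365T (Tet2 -0.82, Rest -0.76, Tet1 -0.45 and Uhrf1 -0.31). In Q418R 1 was lower (Tet2 -0.63), and none was higher in either line. Tet1, like Tet2, encodes a demethylating enzyme and not a silencing factor. Of all tested genes 7.33% were lower and 7.38% higher in K365T, and 3.13% and 3.02% in Q418R. In LIF Tet3 was higher in K365T (0.425). For Rest, a repressor of neuronal genes, the interaction of K365T with the medium passed (-0.97, adjusted p = 0.0324).

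Of the 12 non-clustered protocadherins, which have no variable exons of this kind, 6 passed the filter. Pcdh1, which lies beside the gamma cluster, rose without LIF in every line (3.51 to 4.32) and Pcdh19 fell (-0.86 to -2.07). Pcdh8 was higher than in WT without LIF in K365T (1.37, adjusted p = 0.0316) and Q418R (1.72, 0.0196), and Pcdh10 in Q418R (1.34, 0.0474). Of 12 partners and effectors of the protocadherins, Ptk2b, a kinase that binds their cytoplasmic part, was higher (1.65) and Marcks lower (-0.66) in Q418R in LIF. None was called against WT without LIF. With the medium 2 to 5 of the 12 rose in each line and 0 to 2 fell, beside 21.6% to 23.8% and 23.0% to 24.9% of all genes. Ret rose in each line (1.11 to 2.15). Noncoding transcripts within the clusters were listed after the data were seen, and 4 of 13 passed the filter. Of these 3222401L13Rik fell without LIF in WT (-1.20), R342C (-1.502) and K365T (-0.98), and Gm26672 in R342C (-1.605), K365T (-1.03) and Q418R (-1.14). 4930517L18Rik was lower than in WT in K365T in LIF (-2.00) and without LIF (-1.85). Reads of a gene and of an antisense partner cannot be told apart here, since the use of strand in the counting is not given in the sources used here.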

How the data were processed

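Total RNA-seq (Illumina Stranded Total RNA Prep with Ribo-Zero Plus, paired-end reads of 150 bp) was deposited for 16 libraries. Per the submitters' processing notes the authors used Trim Galore, STAR, DESeq2 and mm10; the counting tool, its strand setting and the gene annotation are not given in the sources used here. One deposited table holds normalised counts, a signal in which the authors divided gene counts by a size factor per library. The other deposited table holds TPM, computed by the authors. Column values outside the series numbered 0.

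In each library 100% of the normalised counts were whole multiples of 1 step (0.7788 to 1.1915, tolerance 0.05 reads), which gave 19721363 to 31935381 reads. TPM matched GENCODE M21 exon lengths, shared constant exons included, to within 0.041% for 20 members with at least 100 reads and 1 gene model.

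The members were chosen by gene symbol. The members and the gene lists (chromosome architecture, silencing, neighbouring genes, non-clustered protocadherins, partners and effectors, noncoding transcripts, and markers of pluripotency, formative, neural, fibroblast, endoderm and mesoderm states) were chosen with earlier results of these data known. The main test was limma 3.58.1 (R 4.3.3) on log2(normalised count + 4), with 1 mean per group over all 16 libraries, a variance trend and Benjamini-Hochberg adjustment over 17757 genes with a mean of at least 10. The count tests, edgeR 4.0.16 and DESeq2 1.42.0 on recovered reads, were alternatives, together with other pseudocounts, filters and scalings, TPM, a replicate block, fits of the compared groups alone and fits without each library. The limma fit was tried on simulated counts drawn with the same spread for every gene. That is no check for members whose replicates differ more widely. Cluster sums carry no test. The genes named are all members past the filter, the gamma genes called at a minimum mean of 1, the C-type genes, the 3 alpha and 3 beta genes with the most reads, and up to 4 called genes of each other list. Counting intervals are exact at 95%.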

Additional observations from a re-analysis of the deposited data

How the results depend on the processing

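Leaving out 1 library moved the number of called members from 7 to between 3 and 6 for the medium in WT, from 7 to 5 in R342C, from 2 to between 1 and 3 in K365T and from 4 to 3 in Q418R. Against WT it gave 0 to 2 in K365T and 0 in Q418R in LIF, and 2 to 8 in K365T and 2 to 5 in Q418R without LIF. The F test gave 0 to 4 in LIF and 5 to 8 without LIF. A filter at a mean of 50, which few members pass, left 1 call per line for the medium and 0 in every comparison between lines. With no filter the medium gave 1 call in K365T and 8 in Q418R, both mutants in LIF and the F test in LIF gave 0, and Q418R without LIF gave 8. A filter at a mean of 1 gave 4 in K365T and 1 in Q418R in LIF, and 9 in Q418R without LIF. Pseudocounts of 1 and 0.5 gave 1 in K365T and 0 in Q418R in LIF. TPM gave 1 for the medium in K365T, 1 in K365T in LIF, 0 in Q418R in LIF and 1 for the F test in LIF, and upper-quartile scaling gave 1 for the medium in K365T. DESeq2 gave 1 in K365T in LIF, 5 in K365T and 1 in Q418R without LIF, with some adjusted p not available, and 1 for Q418R against K365T without LIF. Fits of the compared groups alone, with fewer libraries, gave 4 for the medium in WT, 1 in K365T, 1 in Q418R in LIF, 0 in K365T and Q418R without LIF, where 0 of all genes passed, and 1 for the F test without LIF. The cause of the other changes was not tested. TPM shifted the median of all genes by up to 0.194 (Q418R without LIF). There it moved the share of higher calls over all genes from 49.2% to 77.0%. On TPM the log2 ratio of gamma sums was 0.272 for K365T in LIF (0.139 on normalised counts) and 0.636 for Q418R without LIF (0.404), and it reversed for R342C without LIF, from -0.155 to 0.028.

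The labels do not say that replicate numbers pair libraries. Same-numbered libraries deviated together for the medium (r of 0.27 to 0.295 across genes), and from -0.387 to 0.302 between lines. With the replicate block the count of called members stayed at 7 in WT and changed in 1 comparison, the F test in LIF, from 4 to 5, of which 3 are shared and Pcdhgb8 dropped out. A crossed pairing, chosen after seeing the data, gave 4 in K365T in LIF, 2 in K365T without LIF and 1 for Q418R against K365T in LIF. Depth limits the alpha and beta genes, most of which held fewer than 10 reads in all.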
